A study of Rattus norvegicus with 21 samples.

Results

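SFSN-TC and SFSN-Adipo are 2 of the 6 treated groups in a study of rat bone marrow mesenchymal stem cells, marrow cells that attach in culture and can give rise to bone, cartilage and adipose tissue. The comparison took the 3 libraries of each group, 6 of 21 in all, and every gene of the expression table, without choosing genes by their values. All groups share a wild-type genotype. SFSN-TC and SFSN-Adipo carry the same treatment label, SFSN, and differ in the fate for which each was named, tendon cells for SFSN-TC and adipocytes for SFSN-Adipo. The 3 Control libraries have no treatment. The labels give no dose, time, age or sex, and do not say what sets the treatment of one SFSN group apart from that of another. The libraries of SFSN-TC are named SCX1 and those of SFSN-Adipo PPAR1, and what these names stand for is not stated.

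Genes were listed by name as far as Map2k1, 9998 in number, and those whose names follow, Scx and Pparg among them, were not analysed here. The deposited expected counts of these genes added up to 8553228 to 8856943 in the 6 libraries, a share of the library whose full depth is not known from them. Levels are CPM, counts relative to each library's total over the table's genes after TMM scaling, which evens out the typical gene between libraries. Its factors, by which each library's total was multiplied, were 1.012 to 1.027 in SFSN-TC, 1.019 to 1.039 in SFSN-Adipo and 0.889 to 0.897 in Control, so levels in Control depend on this scaling more than the others. Of the 9998 genes 6659 had enough counts for a test. A gene is called higher or lower where the adjusted p of edgeR's quasi-likelihood test, fitted over all 21 libraries, was under 0.05, and fold changes are SFSN-TC over SFSN-Adipo on the log2 scale ± SE with 3 libraries against 3. Whether the replicates are separate cultures or animals is not labelled, and p-values therefore cover the spread between these libraries, which may be technical.

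Adipocytes store fat in a lipid droplet, burn and release it under hormonal control, and secrete hormones such as adiponectin. Tendon cells lay down parallel fibrils of type I collagen whose width is set by small proteoglycans, and factors of the Egr family support that programme. Cultures of marrow stroma also carry macrophages, and stromal cells answer growth factors, stretch or stress within minutes by a burst of immediate early genes, whose products are transcription factors and their feedback inhibitors.

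SFSN-TC and SFSN-Adipo differed in 383 of the 6659 genes tested (5.75%), of which 169 were higher (2.54%) and 214 lower (3.21%) in SFSN-TC. Of the immediate early genes 20 of 30 were higher in SFSN-TC, Fosb and Jun among them, and of the macrophage and leukocyte genes 9 of 17 were lower, Csf1r and Cd53 among them. The 4 of 18 fat cell genes that were called, Adipoq, Car3, Aqp7 and Lpl, were higher in SFSN-TC than in SFSN-Adipo. Genes of tendon were split, with 5 of 20 higher and 3 lower.

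Most of the differences were small. The median log2 fold change over all genes was -0.002, and 90% of the genes lay between -0.53 and 0.42. Among the called genes the median was 0.38 for those higher and -0.76 for those lower. Of the called genes, 87 differed at least 2-fold (1.31%), and 77 of them were lower in SFSN-TC (1.16%) against 10 higher (0.15%). Of these 77, 50 had a mean under 10 CPM in SFSN-Adipo. Among the 15 pairs of SFSN groups the number of called genes ran from 111 between SFSN-EC and SFSN-TC to 1863 between SFSN-TC and SFSN-FB, and 383 was the fifth lowest. The replicates of a group were alike, with rank correlations of 0.9917 to 0.9951, and no pair of libraries agreed within sampling noise.

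**Figure D1:**
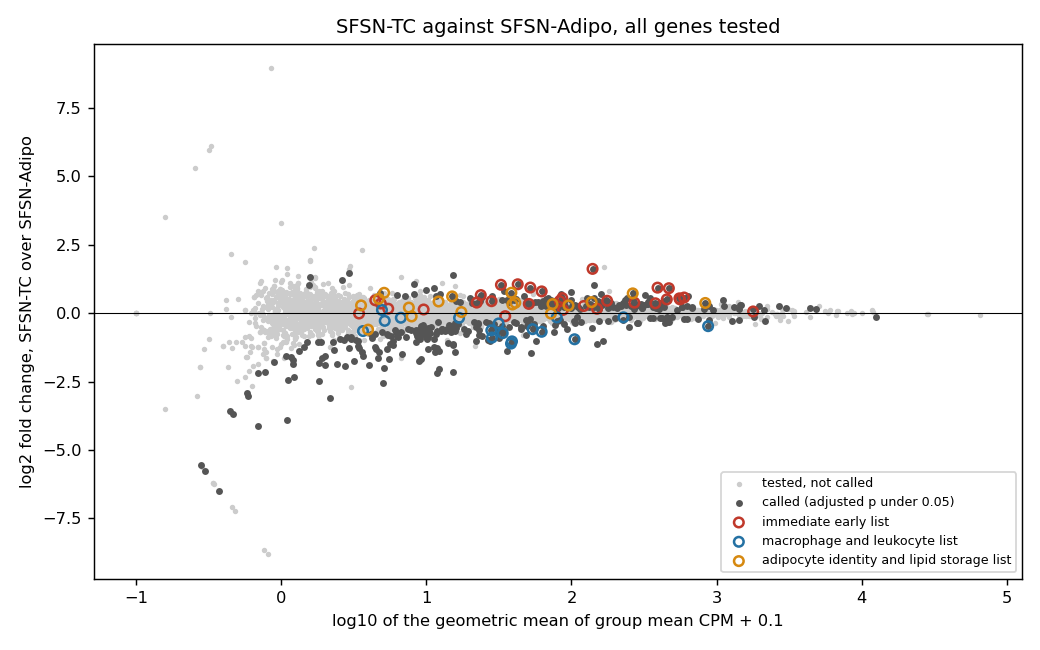
Log2 fold change of SFSN-TC over SFSN-Adipo (vertical axis) against the mean level of both groups (horizontal axis, log10 CPM with 0.1 added) for the 6659 genes tested, with called genes in dark grey and the tested members of 3 lists circled in colour. Of the called genes 77 were at least 2-fold lower in SFSN-TC and 10 at least 2-fold higher.

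The levels in the other SFSN groups and in Control describe where these genes stand. Selection for a difference between SFSN-TC and SFSN-Adipo by itself favours these groups as lowest or highest, and a Control mean in between. The counts here, and those of this kind for single lists below, are thus a description only. Of the 214 genes lower in SFSN-TC, 177 had their lowest mean of the 6 SFSN groups in SFSN-TC, whereas 46 had their highest in SFSN-Adipo. The Control mean lay between SFSN-TC and SFSN-Adipo for 125 of them, above both for 57 and below both for 31, and for 1 it was 0 in both Control and SFSN-TC. Of the 169 genes higher in SFSN-TC, 70 had their highest mean there and 81 had their lowest in SFSN-Adipo. Their Control mean lay below both for 67, above both for 67 and in between for 35.

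The immediate early genes were the list with the largest share called. All 30 members passed the filter on low counts. In SFSN-TC 20 were higher (66.7%), against 2.54% of all genes, and none was lower. The median fold change was 0.44, against -0.002 over all genes. For 23 of the 30 every SFSN-TC library lay above every SFSN-Adipo library, against 15% of all genes. Summed over the list, the level was 7568 to 8029.9 CPM in SFSN-TC, 5734 to 5806 in SFSN-Adipo and 5309 to 5609.6 in Control. The sum follows the most abundant genes, and the median log2 fold change of the members over Control was 0.15 in SFSN-TC and -0.16 in SFSN-Adipo.

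The promoters of 3 of these genes are printed because they hold motifs known from immediate early genes. In each, the window runs from 250 bases before to 50 after the annotated start, from RefSeq on GRCr8, 5′ to 3′ on the gene's strand. Btg2 (chr13:48087641-48087940, minus strand) and Dusp1 (chr10:17184603-17184902, plus strand) carry the cyclic AMP response element TGACGTCA, in capitals. Egr2 (chr20:21054392-21054691, minus strand) carries a CArG box, the site bound by serum response factor, also in capitals.
Btg2: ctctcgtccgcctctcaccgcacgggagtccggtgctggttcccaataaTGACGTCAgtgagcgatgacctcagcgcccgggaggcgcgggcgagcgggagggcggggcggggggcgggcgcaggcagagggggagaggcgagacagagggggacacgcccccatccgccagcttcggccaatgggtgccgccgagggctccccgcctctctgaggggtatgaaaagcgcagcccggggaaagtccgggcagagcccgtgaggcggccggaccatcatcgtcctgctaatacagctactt
Dusp1: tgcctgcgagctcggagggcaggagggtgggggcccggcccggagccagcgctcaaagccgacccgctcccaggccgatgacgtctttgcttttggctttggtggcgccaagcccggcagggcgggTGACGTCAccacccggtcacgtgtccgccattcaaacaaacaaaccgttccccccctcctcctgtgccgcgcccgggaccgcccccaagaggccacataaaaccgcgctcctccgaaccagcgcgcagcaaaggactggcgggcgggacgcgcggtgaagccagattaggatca
Egr2: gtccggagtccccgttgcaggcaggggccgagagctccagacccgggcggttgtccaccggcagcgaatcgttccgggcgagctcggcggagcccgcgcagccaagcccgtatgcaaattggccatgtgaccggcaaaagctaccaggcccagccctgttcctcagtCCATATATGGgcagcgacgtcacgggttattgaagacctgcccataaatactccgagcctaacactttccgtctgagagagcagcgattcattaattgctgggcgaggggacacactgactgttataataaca
The element began at -201 in Btg2 and at -124 in Dusp1, counted from the start, and the CArG box of Egr2 at -83. On either strand, TGACGTCA was in 1.91% of 27457 RefSeq promoter windows of this length and a CArG box in 1.64%. Only 13 of the 20 called genes (65%) had a window in the table, so no share over the list is given. Among these 13, 4 held TGACGTCA and 4 a CArG box, and Fosb, Junb and Dusp6 were among those that held neither. A match is a description of letters and not of binding.

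Fosb, an AP-1 subunit (gene ID 100360880), had the highest fold change of the genes named by the rule. It stood at 265, 277 and 191 CPM in SFSN-TC, at 43, 92.3 and 104 in SFSN-Adipo and at 44.5 to 59.2 in Control. SFSN-TC was the highest of all 6 SFSN groups, and SFSN-Adipo 1 was well below its 2 replicates. The log2 fold change was 1.61 ± 0.36 (adjusted p = 0.00919). Without SFSN-Adipo 1 it was 1.32 and the call was lost (adjusted p = 0.0537).

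The other AP-1 genes moved less but with less spread. Jun stood at 658, 642 and 625 CPM in SFSN-TC, at 332, 343 and 353 in SFSN-Adipo and at 183 to 219 in Control, a difference of 0.91 ± 0.09 (adjusted p = 2.78e-06). Fos stood at 557, 538 and 524 CPM against 373, 383 and 391, with 66.1 to 74.8 in Control (0.50 ± 0.05, adjusted p = 4.63e-06). The groups did not overlap for either gene, and both SFSN groups lay above Control. Junb differed by 0.50 ± 0.09 (adjusted p = 0.0016). Jund was not called, at 0.26 ± 0.08 (adjusted p = 0.0852).

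Zinc finger factors of the Egr family and the stress factor Atf3 followed. Atf3 stood at 60.2, 61 and 62.3 CPM in SFSN-TC and at 27.7, 29.4 and 31.5 in SFSN-Adipo (1.05 ± 0.08, adjusted p = 4.75e-08). Egr3 stood at 43.1, 54.3 and 42.1 CPM against 17.6, 24.9 and 25.8 (1.03 ± 0.17, adjusted p = 0.000682). Both genes were higher in every SFSN-TC library, and both had their highest mean of the SFSN groups in SFSN-FB, not in SFSN-TC. Egr2, whose promoter is shown above, stood at 76.3, 90.6 and 78.5 CPM against 44.3, 49.6 and 48.1, while Control lay at 47.4 to 47.9 (0.79 ± 0.10, adjusted p = 2.73e-05). The level of SFSN-Adipo thus overlapped that of Control, and SFSN-TC stood above both. Csrnp1, a nuclear protein induced with this class, differed by 0.93 ± 0.10 (adjusted p = 4.63e-06).

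Btg2, an antiproliferative cofactor (gene ID 29619), had a difference with very little spread. It stood at 545, 559 and 518 CPM in SFSN-TC, at 267, 295 and 292 in SFSN-Adipo and at 90.1 to 94.7 in Control (0.93 ± 0.04, adjusted p = 4.11e-10). SFSN-TC was again the highest SFSN group. Dusp1, a phosphatase that switches off MAP kinases, stood at 689, 681 and 633 CPM against 456, 464 and 461, with Control at 477 to 490.3 (0.54 ± 0.04, adjusted p = 7.47e-08). Of the other early genes, Klf6 (0.57 ± 0.11), Ier2 (0.45 ± 0.09) and Ier3 (0.36 ± 0.06) were higher, with adjusted p of 0.00284, 0.00297 and 0.000676. Klf6 lost its call with limma on TPM (adjusted p = 0.0604 to 0.0973).

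Not all of these genes were high relative to Control. Dusp6, a feedback phosphatase for ERK, stood at 109, 100 and 104 CPM in SFSN-TC and at 70.7, 73.4 and 70.7 in SFSN-Adipo, below the 225 to 251 of Control. Klf10, a factor induced by TGF-beta, stood at 94.4 to 98.9 CPM, 68.3 to 73.3 and 143 to 156 in the same order. Both were higher in SFSN-TC than in SFSN-Adipo, by 0.54 ± 0.06 and 0.44 ± 0.05 (adjusted p = 1.35e-05 and 2.96e-05), and both were lower in each SFSN group than in Control. SFSN-TC had the highest mean of the SFSN groups for 7 of the 20 called early genes. Klf2 (-0.12 ± 0.12) and Dusp4 (-0.02 ± 0.34) were the 2 members with a negative value, and neither was called.

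**Figure D2:**
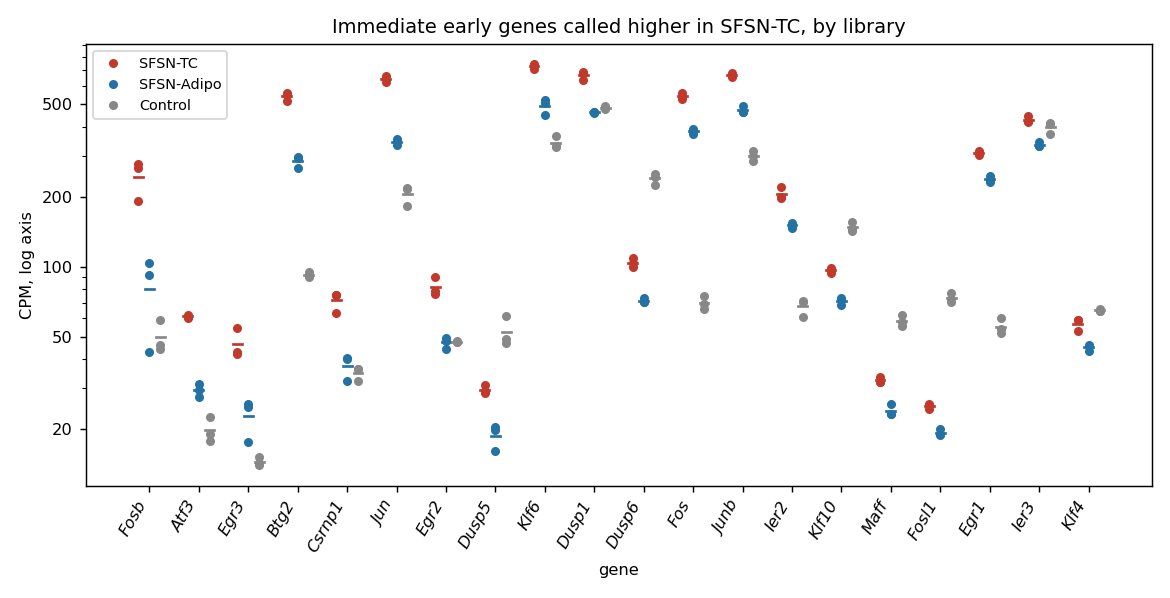
Level of the 20 immediate early genes called higher in each SFSN-TC, SFSN-Adipo and Control library (log axis, CPM), 1 point per library and a short line at the group mean. All 3 SFSN-TC points lie above the SFSN-Adipo points for each gene shown, and for Fosb the SFSN-Adipo 1 point is the lowest at 43 CPM.

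The macrophage and leukocyte genes ran the other way. Of 18 listed, Cd163 had no count in these 6 libraries, and 17 were tested. In SFSN-TC 9 were lower (52.9%), against 3.21% of all genes, and none was higher. The median was -0.59, and for 12 of the 17 every SFSN-TC library lay below every SFSN-Adipo library, against 15.1% of all genes. Summed over the list the level was 1368 to 1398 CPM in SFSN-TC, 1872 to 2011 in SFSN-Adipo and 1322 to 1472 in Control. A large part of each sum was the lysozyme gene Lyz2, with means of 741, 1032 and 660 CPM in the same order. SFSN-TC had the lowest mean of the SFSN groups for 6 of the 9, and SFSN-Adipo the highest for 1. In bulk RNA, fewer cells of a type and less RNA per cell cannot be told apart.

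The promoters of Cd53 and Ctss are shown for the letters bound by PU.1, the factor on which macrophages and granulocytes depend. Both are from RefSeq on GRCr8, Cd53 at chr2:197087847-197088146 on the minus strand and Ctss at chr2:185775146-185775445 on the plus strand, over the same window. The capitals mark ACTTCCTC, which is GAGGAAGT read on the other strand.
Cd53: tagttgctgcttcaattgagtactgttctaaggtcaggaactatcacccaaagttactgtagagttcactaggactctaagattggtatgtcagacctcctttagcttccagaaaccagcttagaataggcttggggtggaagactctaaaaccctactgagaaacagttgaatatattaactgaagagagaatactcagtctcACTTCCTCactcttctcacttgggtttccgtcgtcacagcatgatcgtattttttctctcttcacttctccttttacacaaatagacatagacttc
Ctss: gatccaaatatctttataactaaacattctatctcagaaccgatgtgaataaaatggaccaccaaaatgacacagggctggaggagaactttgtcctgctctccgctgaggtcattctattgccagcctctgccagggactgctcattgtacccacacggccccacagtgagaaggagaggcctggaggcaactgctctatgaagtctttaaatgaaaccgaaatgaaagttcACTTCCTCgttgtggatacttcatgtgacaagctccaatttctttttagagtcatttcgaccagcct
The match began at -46 in Cd53 and at -17 in Ctss. All 9 called genes of the list had a window, and these 2 held the motif on either strand, which was in 2.44% of the 27457 windows. The other 7 did not hold these letters in these 300 bases, from which nothing follows about PU.1.

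Csf1r, the receptor for the growth factor that keeps macrophages alive (gene ID 307403), stood at 72.2, 76.8 and 76.9 CPM in SFSN-TC and at 143, 145 and 151 in SFSN-Adipo, with Control at 87.9 to 94. SFSN-TC was thus below Control and SFSN-Adipo above it, and the SFSN groups differed by -0.96 ± 0.05 (adjusted p = 6.59e-10). With scaling by total counts instead of TMM, Csf1r was not called in opposite directions against Control. Cd53, a tetraspanin of white blood cells, stood at 26.1, 29.9 and 25.2 CPM against 54, 51.5 and 61.1 (-1.04 ± 0.10, adjusted p = 2.26e-06). Ctss, the lysosomal protease cathepsin S, stood at 20.7, 19.2 and 22.1 CPM against 38.7, 37.7 and 39.1 (-0.90 ± 0.13, adjusted p = 0.000208). Neither gene showed an overlap between the groups.

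The lipopolysaccharide receptor Cd14 stood at 49.1, 49.9 and 48.1 CPM against 80.6, 80.4 and 75.6 (-0.68 ± 0.10, adjusted p = 0.000175). The integrin Itgam differed by -0.73 ± 0.14, Laptm5 by -0.59 ± 0.08 and Lyz2, a lysozyme, by -0.48 ± 0.08 (adjusted p = 0.00306, 0.000121 and 0.00134). Itgam lost its call with limma on TPM without the filter on low values (adjusted p = 0.0705). Cybb, the catalytic subunit of the phagocyte oxidase, stood at 24.3 to 27.7 CPM against 52.2 to 61.4 (-1.12 ± 0.29, adjusted p = 0.0259), but its call was lost without any 1 of the 6 libraries (adjusted p = 0.0543 to 0.106). Cd68 (-0.63 ± 0.14, adjusted p = 0.00934) lost its call without SFSN-TC 1 (adjusted p = 0.0598).

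Other macrophage genes were not called. Adgre1, the F4/80 antigen, stood at 72.9, 74.9 and 76.7 CPM in SFSN-TC and at 86.4, 75.6 and 88.7 in SFSN-Adipo (-0.16 ± 0.09, adjusted p = 0.431), above the 12.9 to 16.1 of Control. The complement genes C1qa (-0.17 ± 0.22), C1qb (0.11 ± 0.22) and C1qc (-0.29 ± 0.27) and the cytoskeletal gene Aif1 (-0.18 ± 0.14) were not called either. At 33 to 71 counts per library for the complement genes, a small difference was not detectable. Of genes chosen after their values were seen, the macrophage receptor gene Gpr34 (0.59 ± 0.10, adjusted p = 0.000991) and the leukocyte integrin gene Itgad (0.59 ± 0.13, adjusted p = 0.00697) were higher in SFSN-TC. Genes that white blood cells express were thus not all lower in SFSN-TC.

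**Figure D3:**
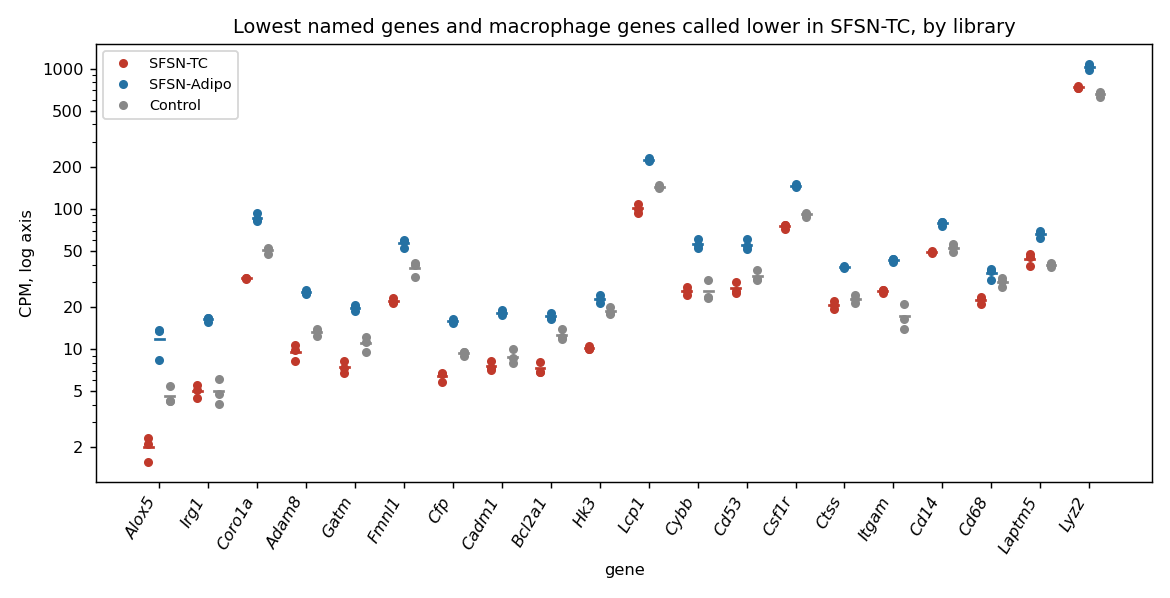
Level of genes with the lowest fold changes and of the macrophage and leukocyte genes called lower, in each SFSN-TC, SFSN-Adipo and Control library (log axis, CPM), with 1 point per library and a short line at the group mean. For Csf1r the SFSN-TC points lie at 72.2 to 76.9 CPM and the SFSN-Adipo points at 143 to 151, with Control in between.

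Alox5 and Irg1 had the lowest fold changes of the genes that reached 10 CPM in SFSN-Adipo and were named by the rule, and neither is on the list. Alox5, the enzyme that starts leukotriene synthesis (gene ID 25290), stood at 2.11, 1.57 and 2.34 CPM in SFSN-TC, at 13.6, 13.4 and 8.33 in SFSN-Adipo and at 4.28 to 5.42 in Control (-2.54 ± 0.22, adjusted p = 6.28e-07). Irg1, the gene of the itaconate-forming enzyme of activated macrophages, stood at 4.5 to 5.58 CPM against 15.7 to 16.7, with Control at 4.03 to 6.17 (-1.69 ± 0.12, adjusted p = 4.75e-08). Irg1 in SFSN-TC lay within the Control range, whereas Alox5 lay below it. SFSN-TC was the lowest and SFSN-Adipo the fourth of the 6 SFSN groups for both genes.

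Lcp1 and Coro1a, which regulate actin in white blood cells, were also among the lowest genes named by the rule. Lcp1, or L-plastin, stood at 94, 99.6 and 108 CPM in SFSN-TC, at 229, 218 and 222 in SFSN-Adipo and at 139.9 to 149 in Control (-1.15 ± 0.06, adjusted p = 4.11e-10). Coro1a, a coronin, stood at 32.1, 32.2 and 31.4 CPM against 94.2, 81.3 and 84.7, with Control at 47.4 to 52.6 (-1.44 ± 0.12, adjusted p = 2.69e-07). For both genes SFSN-TC lay below Control and SFSN-Adipo above it, with no overlap. The formin Fmnl1 differed by -1.37 ± 0.08 and the surface protease Adam8 by -1.41 ± 0.08 (adjusted p = 5.95e-09 and 4.08e-09). Properdin, encoded by Cfp (-1.31 ± 0.12), the survival gene Bcl2a1 (-1.22 ± 0.16) and the hexokinase gene Hk3 (-1.17 ± 0.10) had adjusted p of 1.01e-06, 4.47e-05 and 3.61e-07.

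Further genes known from white blood cells were picked after their values were seen, so they stand for no list and their direction is no result about a group. Dock2 (-1.13 ± 0.10) and Elmo1 (-1.09 ± 0.08) form a complex that drives migration, and had adjusted p of 5.98e-07 and 1.27e-07. The phosphatase gene Inpp5d (-0.86 ± 0.07), the adaptor gene Hcls1 (-0.97 ± 0.09), the integrin activator gene Fermt3 (-1.02 ± 0.08) and the transcription factor gene Irf8 (-0.88 ± 0.12) had adjusted p of 4.4e-07, 1.01e-06, 8.45e-08 and 9.31e-05. The chemokine receptor gene Ccr1 stood at 0.222, 1.12 and 0.67 CPM against 6.09, 4.83 and 6.76 (-3.11 ± 0.33, adjusted p = 6.03e-06), below the limit of 10 CPM set for naming. With 2 to 10 counts per SFSN-TC library the size of this change is uncertain, and it ran from -3.68 to -1.61 over the alternatives. Cxcr4, a chemokine receptor gene picked in the same way, was higher instead, at 35.1, 35.7 and 33.5 CPM against 21.6, 25 and 21.5, with Control at 54.9 to 57.2 (0.61 ± 0.09, adjusted p = 0.000169).

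Gatm and Cadm1, also among the genes that the rule named for the lowest fold changes, are not known chiefly from white blood cells. Gatm, the first enzyme of creatine synthesis, stood at 6.78 to 8.26 CPM against 18.8 to 20.6 (-1.40 ± 0.09, adjusted p = 2.42e-08). Cadm1, a cell adhesion gene, stood at 7.11 to 8.21 CPM against 17.4 to 19 (-1.27 ± 0.11, adjusted p = 3.87e-07). The summed level of the macrophage and leukocyte list was lower in SFSN-TC beside them, at 1368 to 1398 against 1872 to 2011 CPM, and its part in these differences was not tested.

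Chemokine and cytokine genes were divided. Of 32 listed, 27 were tested, 8 were lower in SFSN-TC, 2 were higher and the median was -0.16. The share called was 37%, against 5.75% over all genes. Ccl2, which attracts monocytes, stood at 217, 216 and 197 CPM in SFSN-TC, at 303, 291 and 303 in SFSN-Adipo and at 177 to 189 in Control (-0.51 ± 0.05, adjusted p = 1.42e-06). Ccl7 stood at 38.7, 38.2 and 42.3 CPM against 87.1, 76.3 and 77.5, with Control at 78.3 to 95.5 (-1.01 ± 0.15, adjusted p = 0.0002). Ccl2 was thus above Control in both groups, whereas Ccl7 was below it in SFSN-TC.

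Il1b, a cytokine of activated macrophages, stood at 7.09 to 8.15 CPM against 11.5 to 13.6 (-0.75 ± 0.14, adjusted p = 0.0027) and Ccl3 at 10.4 to 12.4 against 17.2 to 19.4 (-0.70 ± 0.13, adjusted p = 0.00208). Il33, a cytokine of stromal cells, differed by -0.52 ± 0.10 (adjusted p = 0.00259). The lower sum of the macrophage and leukocyte list went with these genes, and its part in them was not tested. Cxcl6 (-1.62 ± 0.33), Ccl20 (-1.31 ± 0.20) and Cxcl3 (-1.24 ± 0.32) were lower at under 9 CPM (adjusted p = 0.00472, 0.000267 and 0.0236). The call of Cxcl3 was lost without SFSN-TC 2 or 3 or SFSN-Adipo 2 or 3 (adjusted p = 0.0522 to 0.126).

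Cxcl1, a chemokine for neutrophils, went against the genes of this list that were called lower. It stood at 202, 204 and 204 CPM in SFSN-TC, at 86.5, 104 and 109 in SFSN-Adipo and at 5.92 to 7.31 in Control (1.03 ± 0.10, adjusted p = 1.99e-06). The groups did not overlap and both lay far above Control. Il15 was also higher (0.38 ± 0.11, adjusted p = 0.0398), with the call lost without SFSN-TC 1, 2 or 3 or SFSN-Adipo 1 or 3 (adjusted p = 0.0552 to 0.216). Csf2 had no count in these libraries.

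Fat cell genes were compared because SFSN-Adipo was named for that fate. Of 19 listed, 18 were tested, and Lep was near 0. In SFSN-TC 4 were higher (22.2%), against 2.54% of all genes, none was lower, and the median was 0.35. For 12 of the 18 all SFSN-TC libraries lay above all SFSN-Adipo libraries, against 15% of all genes. Summed over the list the level was 1891 to 1974 CPM in SFSN-TC, 1429.7 to 1507 in SFSN-Adipo and 490.4 to 526 in Control, so both SFSN groups stood above Control. A large part of each sum was Lpl, with means of 949, 736 and 322 CPM in the same order. SFSN-TC had the highest mean of the SFSN groups for all 4 called genes.

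Adipoq, which encodes adiponectin (gene ID 246253), stood at 49.8, 46.3 and 52.9 CPM in SFSN-TC, at 28.9, 29.1 and 31.2 in SFSN-Adipo and at 1.26 to 1.64 in Control (0.74 ± 0.12, adjusted p = 0.000427). Car3, a carbonic anhydrase abundant in fat, stood at 331, 338 and 348 CPM against 214, 199.6 and 205 (0.72 ± 0.10, adjusted p = 0.000132). Lpl, which frees fatty acids from blood lipids, stood at 916, 954 and 979 CPM against 737, 737 and 735 (0.37 ± 0.06, adjusted p = 0.000264). No library of SFSN-Adipo reached the lowest SFSN-TC library for any of these genes. Lpl lost its call with limma on TPM (adjusted p = 0.0534 to 0.0856).

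The glycerol channel gene Aqp7 stood at 15.3, 20.9 and 19.1 CPM against 14.8, 9.55 and 11.9 (0.61 ± 0.17, adjusted p = 0.0423), and the call was lost without SFSN-TC 2 or 3 or SFSN-Adipo 2 or 3 (adjusted p = 0.13 to 0.217). Fabp4, a fatty acid carrier, stood at 166, 154 and 153 CPM in SFSN-TC and at 135, 115 and 108 in SFSN-Adipo but was not called (0.40 ± 0.19, adjusted p = 0.319). Nor were the regulator gene Cebpa (0.28 ± 0.12, adjusted p = 0.236), Cidec, a lipid droplet gene (0.74 ± 0.27, adjusted p = 0.151), or adipsin, encoded by Cfd (0.37 ± 0.16, adjusted p = 0.241). The fatty acid translocase gene Cd36 stood at 67 to 74.5 CPM and 70.9 to 74.2 (-0.02 ± 0.10, adjusted p = 0.962). Klf15 had the lowest value of the list, -0.61 ± 0.19 (adjusted p = 0.0777).

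The lists of enzymes that make and burn fat held 4 calls, to be read against the 5.75% called over all genes. In fatty acid oxidation 1 of 24 genes was called (4.17%), Acsl1, which activates fatty acids, at 0.39 ± 0.07 (adjusted p = 0.00125). In fatty acid synthesis 1 of 15 was called (6.67%), the desaturase gene Fads2, at 23.8, 22 and 22.7 CPM against 41.1, 44.5 and 44 (-0.92 ± 0.10, adjusted p = 7.18e-06). In cholesterol synthesis and uptake 2 of 15 were lower (13.3%), Acat2 (-0.52 ± 0.09, adjusted p = 0.00142) and Fdps (-0.25 ± 0.07, adjusted p = 0.0289), and 13 of the 15 had a negative value. The call of Fdps was lost without SFSN-TC 1, 2 or 3 or SFSN-Adipo 1 or 2 (adjusted p = 0.0583 to 0.203).

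Tendon genes were compared because SFSN-TC was named for that fate. Of 22 listed, 20 were tested, while Kera, a keratan sulfate proteoglycan, and Chad, chondroadherin, were at or near 0. The 5 higher and 3 lower genes leave a median of -0.03, and 12 of the 20 were not called. Over all genes 2.54% were higher and 3.21% lower. Egr1 and Egr2, among the 5, are also on the immediate early list. For 6 genes all SFSN-TC libraries lay above those of SFSN-Adipo and for 8 below, against 15% and 15.1% of all genes.

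Among the higher genes were matrix proteins and Egr factors. Cilp, an intermediate layer protein of cartilage and tendon, stood at 416, 407 and 431 CPM in SFSN-TC, at 288, 289 and 281 in SFSN-Adipo and at 181 to 198 in Control (0.55 ± 0.06, adjusted p = 3.04e-06). Lum, lumican, stood at 2137, 2116 and 2173 CPM against 1859.6, 1749.8 and 1809.7 (0.25 ± 0.03, adjusted p = 7.28e-05), and Aspn, asporin, differed by 0.23 ± 0.05 (adjusted p = 0.00397). Egr2 is given above as an early gene. Egr1 differed by 0.38 ± 0.09 (adjusted p = 0.0154), a call lost without SFSN-TC 1 or 2 or SFSN-Adipo 1 or 2 (adjusted p = 0.0518 to 0.0647).

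The lower genes were highest in SFSN-Adipo of all 6 SFSN groups and lowest in SFSN-TC. Fmod, fibromodulin, which sets the width of collagen fibrils, stood at 38.1, 36.9 and 35.1 CPM in SFSN-TC, at 66.3, 60.8 and 63.2 in SFSN-Adipo and at 44.5 to 47.4 in Control (-0.79 ± 0.08, adjusted p = 6.2e-06). Cilp2 stood at 5.89, 5.85 and 5.69 CPM against 12.1, 12.2 and 11.6, with Control at 7.94 to 8.95 (-1.04 ± 0.12, adjusted p = 1.53e-05). Both genes were below Control in SFSN-TC and above it in SFSN-Adipo. With scaling by total counts instead of TMM, neither was called in opposite directions against Control. Comp stood at 1.56 to 1.9 CPM against 2.77 to 3.82 (-0.95 ± 0.26, adjusted p = 0.036), a call lost without SFSN-TC 1, 2 or 3 or SFSN-Adipo 2 or 3 (adjusted p = 0.0816 to 0.151).

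Other matrix genes of tendon were not called. Col1a1 stood at -0.09 ± 0.05 (adjusted p = 0.399), Col3a1 at -0.03 ± 0.06 (adjusted p = 0.889) and Col5a1 at -0.01 ± 0.07 (adjusted p = 0.966). Bgn, biglycan, stood at 0.00 ± 0.06 (adjusted p = 0.995) and Dcn, decorin, at -0.06 ± 0.06 (adjusted p = 0.759). Of 31 collagen chains tested, 4 were called (12.9%, against 5.75% of all genes), each by a small amount. Col18a1 (0.24 ± 0.03), Col6a2 (0.19 ± 0.04) and Col6a1 (0.16 ± 0.04) were higher and Col8a2 (-0.25 ± 0.04) lower, with adjusted p of 0.000101, 0.00208, 0.0344 and 0.00066. The call of Col6a1 was lost without SFSN-TC 1, 2 or 3 or SFSN-Adipo 2 or 3 (adjusted p = 0.0665 to 0.151). With limma on TPM the calls of Col18a1 (adjusted p = 0.0529 to 0.0777), Col6a2 (0.192 to 0.273) and Col8a2 (0.169 to 0.224) were lost, and that of Col18a1 also with the gene length trend removed (adjusted p = 0.11).

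**Figure D4:**
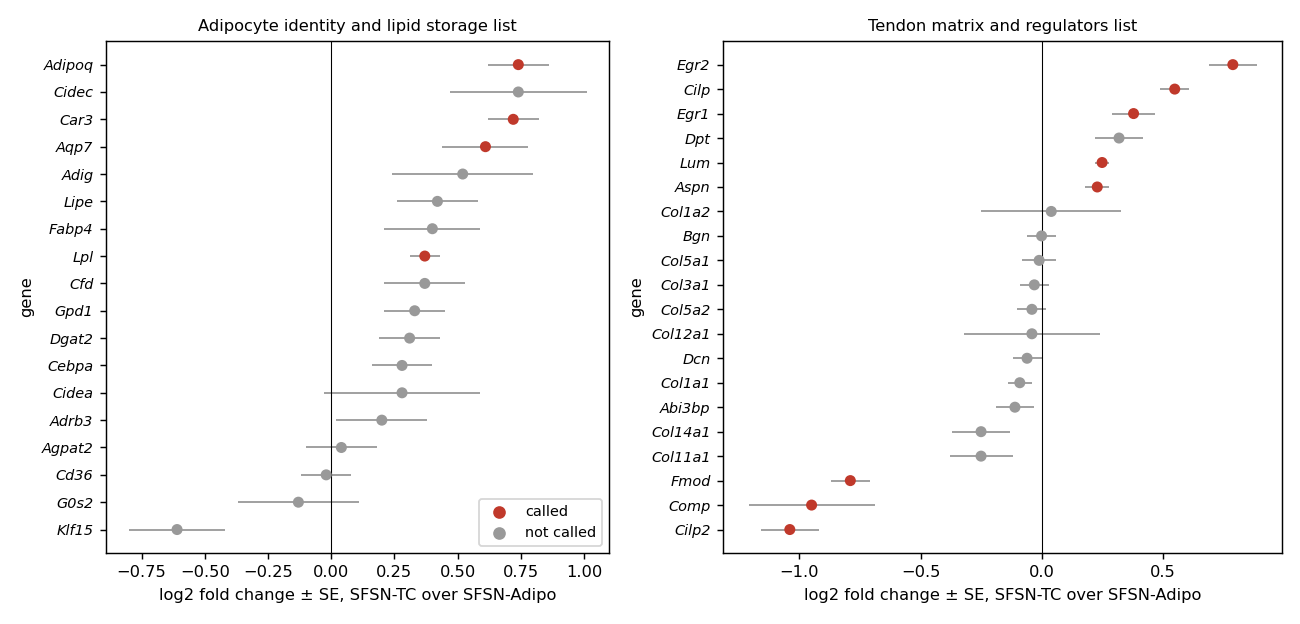
Log2 fold change of SFSN-TC over SFSN-Adipo for the tested adipocyte and tendon genes, with bars of 1 SE, called genes in red and the others in grey. The 4 called adipocyte genes lie right of 0, and the called tendon genes lie on both sides, from -1.04 for Cilp2 to 0.79 for Egr2.

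Genes of Notch and BMP signalling were higher in SFSN-TC where they were called. In the Notch list 4 of 9 tested genes were higher (44.4%, against 2.54% of all genes) and none lower, with a median of 0.37. Hes1, a repressor switched on by Notch, stood at 162, 154 and 149 CPM in SFSN-TC, at 105, 109 and 101 in SFSN-Adipo and at 64.9 to 78.5 in Control (0.56 ± 0.08, adjusted p = 0.000101). Its relative Heyl stood at 80.7, 81.1 and 84.5 CPM against 63.1, 51.1 and 58.3 (0.51 ± 0.09, adjusted p = 0.00105). The groups did not overlap for either gene. The ligand gene Dll1 (0.66 ± 0.17, adjusted p = 0.0256) lost its call without SFSN-TC 1 or 3 or SFSN-Adipo 2 or 3 (adjusted p = 0.0595 to 0.124). Lfng, which modifies the receptor (0.37 ± 0.10, adjusted p = 0.0406), lost its call without any 1 of the 6 libraries (adjusted p = 0.0703 to 0.155).

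In the BMP list 4 of 16 genes were higher (25%, against 2.54% of all genes) and none lower, with a median of 0.12. Id1, a target that blocks basic helix-loop-helix factors, stood at 115, 105 and 103 CPM against 71.3, 62.7 and 67.7, while Control lay at 88.3 to 105 (0.68 ± 0.16, adjusted p = 0.0139). The call was lost without SFSN-TC 1 (adjusted p = 0.0591) or SFSN-Adipo 2 (adjusted p = 0.0672). The ligand gene Bmp2 differed by 0.53 ± 0.12 (adjusted p = 0.0081). Id2 differed by 0.34 ± 0.07 (adjusted p = 0.00563), a call lost with the gene length trend removed (adjusted p = 0.0939) and with limma on TPM (adjusted p = 0.0774 to 0.12).

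The share called in the other signalling lists was 13.3% for Wnt, 20% for TGF-beta and YAP and 4.76% for interferon, beside 5.75% over all genes. In the Wnt list 1 of 15 was higher, the nuclear effector gene Lef1 (0.49 ± 0.09, adjusted p = 0.00126), and 1 lower, the receptor gene Lgr5, at under 8 CPM (-0.79 ± 0.19, adjusted p = 0.0149). The call of Lgr5 was lost without SFSN-TC 1 or SFSN-Adipo 1 or 2 (adjusted p = 0.054 to 0.0943). In the TGF-beta and YAP list 3 of 15 were higher, Bhlhe40 (0.53 ± 0.10), Inhba (0.47 ± 0.12) and Amotl2 (0.12 ± 0.03), with adjusted p of 0.00284, 0.028 and 0.0205. Bhlhe40 lost its call with limma on TPM (adjusted p = 0.0619 to 0.0989). Inhba lost its call without any 1 of the 6 libraries (adjusted p = 0.0536 to 0.127) and Amotl2 without SFSN-TC 2 or 3 or SFSN-Adipo 1 or 3 (adjusted p = 0.0533 to 0.0921). In the interferon list 1 of 21 was called, the transcription factor gene Irf1 (0.47 ± 0.11, adjusted p = 0.015), a call lost without SFSN-TC 1 or 2 or SFSN-Adipo 1 (adjusted p = 0.0636 to 0.0793).

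2 bone genes were higher in SFSN-TC, out of 8 tested (25%), against 2.54% of all genes. Dmp1, a matrix protein of osteocytes, stood at 12, 10.1 and 13.3 CPM against 6.32, 6.06 and 4.39, with Control at 3.53 to 5.29 (1.08 ± 0.21, adjusted p = 0.00284). Ibsp, bone sialoprotein, stood at 203, 211 and 205 CPM against 172, 151 and 159, with Control at 7.68 to 8.44 (0.36 ± 0.08, adjusted p = 0.00631). The groups did not overlap for either gene. Of 6 cartilage genes 1 was called (16.7%, against 5.75% of all genes), Chst11 (0.31 ± 0.09, adjusted p = 0.0467). That call was lost without any 1 of the 6 libraries (adjusted p = 0.0987 to 0.132). Acan, aggrecan, stood at 1583 to 1627 CPM against 1198 to 1238 and was not called (0.40 ± 0.13, adjusted p = 0.0772).

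Lists on metabolism and stress had calls in 1 direction. In hypoxia and glycolysis 4 of 16 genes were lower in SFSN-TC (25%, against 3.21% of all genes) and none higher, with a median of -0.23. For 10 all SFSN-TC libraries lay below all SFSN-Adipo libraries, against 15.1% of all genes. Ldha, lactate dehydrogenase, stood at 1165, 1107 and 1209 CPM against 1455, 1358 and 1394 (-0.27 ± 0.05, adjusted p = 0.000676), and Aldoc, an aldolase, at 14.4 to 15.7 against 21.7 to 22.7 (-0.57 ± 0.09, adjusted p = 0.000603). Control lay above SFSN-TC for both, at 1467 to 1527 CPM for Ldha and at 18.4 to 21.4 for Aldoc. Ak4 (-0.56 ± 0.15, adjusted p = 0.0272) lost its call without SFSN-TC 1 or 2 or any 1 SFSN-Adipo library (adjusted p = 0.0634 to 0.166), and Gpi (-0.31 ± 0.09, adjusted p = 0.0385) without any 1 of the 6 (adjusted p = 0.0618 to 0.173). Car9, another target of hypoxia, had the opposite sign and was not called (0.32 ± 0.10, adjusted p = 0.0767).

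In the list of amino acid stress and the unfolded protein response 4 of 20 were lower (20%, against 3.21% of all genes). None was higher, and the median was -0.14. Ddit3, the CHOP factor, stood at 30.6, 32.3 and 29.7 CPM against 44.1, 43.5 and 44.8 (-0.52 ± 0.11, adjusted p = 0.00586), and Herpud1 at 160 to 162 against 193 to 202 (-0.29 ± 0.05, adjusted p = 0.00228). Cth (-0.42 ± 0.11, adjusted p = 0.0292) and Chac1 (-0.40 ± 0.10, adjusted p = 0.0282) lost their calls without single libraries, Cth without SFSN-TC 1, 2 or 3 or SFSN-Adipo 1 or 3 (adjusted p = 0.0613 to 0.161) and Chac1 without SFSN-TC 2 or 3 or any 1 SFSN-Adipo library (adjusted p = 0.0761 to 0.171). Of 17 heat shock genes 2 were lower (11.8%, against 3.21% of all genes), Fkbp4 (-0.29 ± 0.08, adjusted p = 0.0337) and Hspd1 (-0.22 ± 0.05, adjusted p = 0.0211). Fkbp4 lost its call without any 1 of the 6 libraries (adjusted p = 0.0563 to 0.213) and Hspd1 without SFSN-TC 1 or 2 or SFSN-Adipo 1 or 3 (adjusted p = 0.0644 to 0.139).

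Among matrix enzymes and contractile genes the called differences were mostly small. The share called was 10.5% for elastic fibres, 11.1% for matrix proteases and 6.67% for actin and smooth muscle, beside 5.75% over all genes. Of 19 genes of elastic fibres and crosslinking, Lox (-0.28 ± 0.06, adjusted p = 0.00708) and Fbln2 (-0.25 ± 0.07, adjusted p = 0.0481) were lower. The call of Lox was lost without SFSN-TC 1 (adjusted p = 0.0511) and that of Fbln2 without any 1 of the 6 libraries (adjusted p = 0.105 to 0.185). Of 27 matrix protease genes, Adam8, given above, and Ctsb (-0.16 ± 0.04, adjusted p = 0.0463) were lower and Bmp1, which trims procollagen, was higher (0.20 ± 0.04, adjusted p = 0.00208). Bmp1 lost its call with limma on TPM (adjusted p = 0.0594 to 0.0852). Ctsb lost its call without any 1 of the 6 libraries (adjusted p = 0.0761 to 0.246). Of 15 actin and smooth muscle genes only Lmod1 was called (0.20 ± 0.05, adjusted p = 0.011), a call lost without SFSN-TC 3 (adjusted p = 0.0585) or SFSN-Adipo 2 (adjusted p = 0.0634).

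No gene was called among 36 of the cell cycle, 10 targets of p53, 7 endothelial and 6 neuronal genes tested. Of 10 genes on the marrow stromal list only Alcam was called (10%, against 5.75% of all genes), at -0.36 ± 0.08 (adjusted p = 0.0143). That call was lost without SFSN-TC 1, 2 or 3 or SFSN-Adipo 2 (adjusted p = 0.0541 to 0.0693). The summed level of this list, 7921 to 8847 CPM in these 6 libraries, was below the 12539 to 13260.3 of Control. Red blood cell genes summed to 0.997 to 1.69 CPM and epithelial genes to 2.93 to 4.5 CPM, near 0 in both groups.

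Among the 12 genes with the highest fold changes were also signalling genes outside the lists. Inpp4b, a lipid phosphatase, stood at 39.4, 48.1 and 47 CPM against 23.8, 27.1 and 26.7 (0.79 ± 0.18, adjusted p = 0.00848), a call lost with limma on TPM (adjusted p = 0.0533 to 0.0889). Gucy1a3, a subunit of the nitric oxide receptor, stood at 131, 133 and 124 CPM against 70, 85.5 and 75 (0.75 ± 0.10, adjusted p = 0.000111). Its partner subunit Gucy1b3, chosen after its values were seen, stood at 80.2, 82.9 and 90.1 CPM against 61.9, 63 and 67.5 (0.40 ± 0.06, adjusted p = 0.000286). Both subunits were thus higher in every SFSN-TC library.

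**Figure D5:**
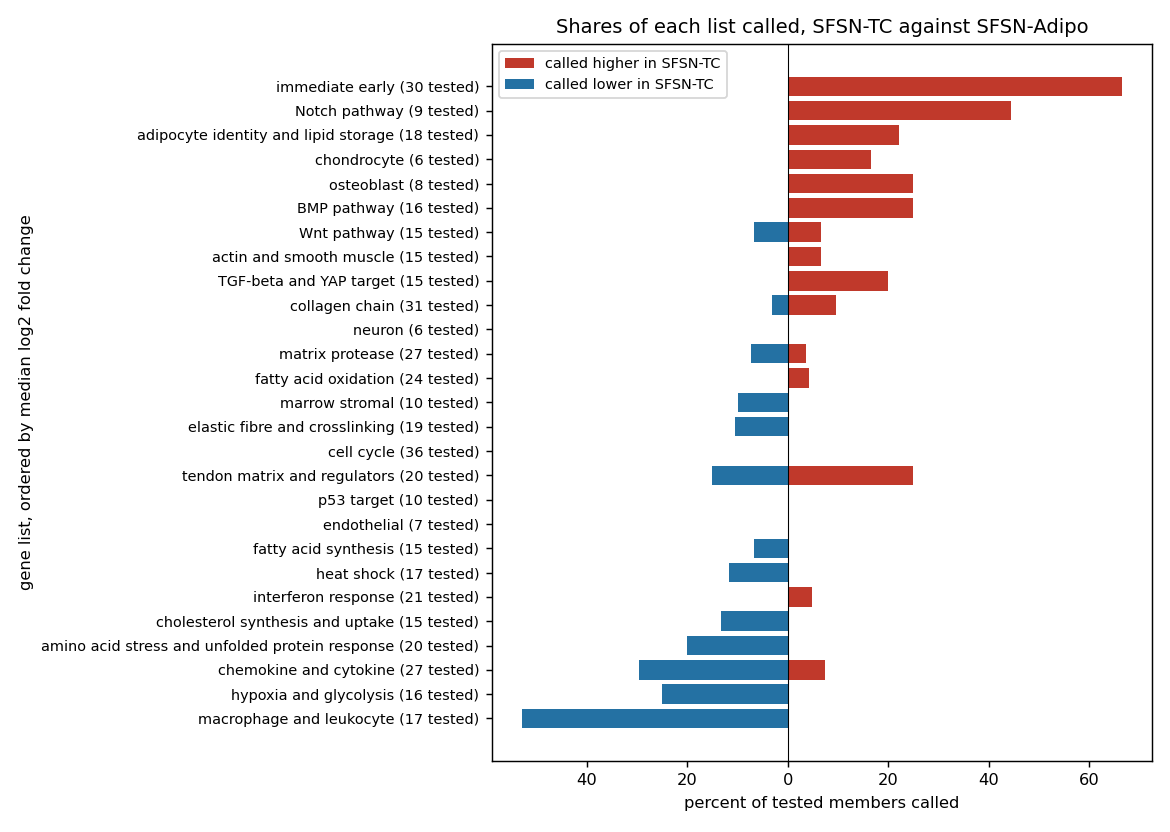
Percent of the tested members of each list with at least 5 of them that were called higher (right of 0) or lower (left of 0) in SFSN-TC than in SFSN-Adipo. The immediate early list has 20 of 30 members higher, and the macrophage and leukocyte list 9 of 17 lower.

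Each SFSN group differed from Control in more genes than from the other. SFSN-TC differed from Control in 2534 genes (38.1%), 1285 higher (19.3%) and 1249 lower (18.8%), and SFSN-Adipo in 2430 (36.5%), 1309 higher (19.7%) and 1121 lower (16.8%). These comparisons share the 3 Control libraries. With scaling by total counts the median gene moved by 0.20 in SFSN-TC and 0.22 in SFSN-Adipo, and 78.3% and 82.5% of the calls were higher, against 50.7% and 53.9% here. In the comparison of SFSN-TC with SFSN-Adipo it moved by -0.01, and the share of calls that were higher was 40% against 44.1%.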

How the data were processed

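RNA of 21 libraries was sequenced, 3 for each of 7 groups. Per the submitters' processing notes, reads were trimmed with SOAPnuke 2.2.1, aligned to Rnor_6.0 with HISAT2 2.2.1 and, with up to 200 alignments per read, to a gene set with Bowtie2 2.4.5, and counted per gene by RSEM 1.3.1 with a forward probability of 0, its setting for reverse-stranded libraries. DESeq2 1.34.0 is also named there. The annotation's release: not given in the sources used here. Reads shared between paralogs, such as chemokine or lysozyme genes, were split by the authors' estimate, so levels of such genes are less certain.

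Per the file headers, the deposited table holds for each gene and library an expected count, an FPKM, a TPM and a normalized count. Tests used the deposited expected counts after rounding (84.4% of values above 0 were already whole). The FPKM deposited by the authors gave each gene's length, the deposited TPM an alternative test, and the authors' normalized count, a signal divided by a library factor, that factor. The authors' group means were not used. Of the 9998 genes 233 had no count, and 26 symbols that had been turned into dates were restored by gene ID.

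All 21 libraries were fitted in edgeR 4.0.16 (R 4.3.3) with filterByExpr, TMM scaling and 1 mean per group, with 14 residual degrees of freedom and a biological coefficient of variation of 11.8%. Genes were called at a Benjamini-Hochberg adjusted p under 0.05 over 6659 genes. The SE was derived from the F statistic, as the fold change (log2) over its square root. Alternatives were other scalings, no filter on low counts, DESeq2 1.42.0, limma 3.58.1 on log2(TPM + 1) and log2(TPM + 0.1), other sets of libraries, removal of a gene length trend, a replicate block and each library left out. The steps were tested on simulated data.

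The comparison and the 29 gene lists were chosen with earlier results of these data known, 1 of them (collagen chains) by gene symbol. Genes were named by a rule: the 12 highest and 12 lowest called genes whose higher group reached a mean of 10 CPM and whose libraries did not overlap, all adipocyte and tendon genes, and up to 4 members of every other list, or all called members where a list had at most 8. Values of 3 genes that the rule names are not reported here. Fos, Junb, Dusp1, Dusp6, Klf6, Klf10, Ier2, Ier3, Jund, Klf2 and Dusp4 of the immediate early list, Cd14, Cd68, Itgam, Laptm5, Lyz2, Adgre1, Aif1 and the C1q genes of the macrophage list, Ccl2, Ccl3, Ccl7, Il1b, Il15 and Il33, and the collagen chains were named after their values were seen.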

Additional observations from a re-analysis of the deposited data

Results flagged for a closer look

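For 20 of the genes named above or here, SFSN-TC and SFSN-Adipo differed from Control in opposite directions, each change being called. In each of them the difference between SFSN-TC and SFSN-Adipo was itself called. Over all 6659 genes both held for 37, of which 33 were lower in SFSN-TC. Values are the log2 fold change of SFSN-TC over SFSN-Adipo. Among genes known mainly from white blood cells it was -2.54 for Alox5, -1.64 for Gpr84, a receptor for fatty acids chosen after its values were seen, -1.44 for Coro1a, -1.41 for Adam8, -1.37 for Fmnl1, -1.31 for Cfp, -1.22 for Bcl2a1, -1.17 for Hk3 and -1.15 for Lcp1. It was -1.13 for Dock2, -1.09 for Elmo1, -1.04 for Cd53, -1.02 for Fermt3, -0.97 for Hcls1, -0.96 for Csf1r and -0.86 for Inpp5d. Dock2, Elmo1, Fermt3, Hcls1 and Inpp5d were likewise chosen after their values were seen, so the number of white blood cell genes here is no result. Among other genes it was -1.40 for Gatm, -1.04 for Cilp2 and -0.79 for Fmod. Aoc3, an amine oxidase of fat and smooth muscle also chosen after its values were seen, was the only one of the 20 that was higher in SFSN-TC, at 0.38.

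The opposite directions depend on the scaling against Control. With total-count scaling 31 genes had them, and of the 20 named genes 11 did. Cilp2, Fmod, Cd53, Csf1r, Dock2, Elmo1, Inpp5d, Hcls1 and Aoc3 then had no opposite calls. With relative log expression size factors 36 genes had them, without Fermt3, and with the gene length trend removed 43, without Cd53 and Aoc3.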

How the results depend on the processing

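The 383 calls between SFSN-TC and SFSN-Adipo became 643 when the 6 libraries of both groups were fitted alone, with 355 genes shared (92.7% of the 383). The members of the lists called then rose from 91 to 146, the adipocyte genes called higher from 4 to 10 and the tendon genes called lower from 3 to 5. The tendon genes called lower were also 5 without the 2 libraries that stood apart (SFSN-EC 1 and SFSN-Neu 2) and 6 with the gene length trend removed, and the adipocyte genes called higher were 7 with limma on log2(TPM + 1). The cause of these shifts was not tested. Without 1 library at a time the calls numbered 267 to 293. With a replicate block, numbers not being tied to a shared source and same-numbered libraries correlating at 0.032 to 0.092, 345 genes were called. No result reversed. Of 126 named genes that were called, 82 kept their call in all 17 alternatives and 44 lost it in at least 1: limma on TPM lost 25 to 27, leaving out 1 library 21 to 26, no filter on low counts 14, the length trend 10, the replicate block 8 and the other 5 alternatives 0 to 3. The losses named above are those without single libraries, or, for calls that held there, those on TPM or with the length trend removed. The filter on low counts left 6659 of the 9998 genes for a test.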
